A study of Mus musculus with 8 samples.

Results

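The interleukin genes were followed in mouse dorsal root ganglia (DRG), which hold the cell bodies of the sensory neurons, through a hind-paw inflammation. They were taken as all rows of the count table whose name starts with Il and a number, and that held at least 10 counts summed over the 8 libraries. Of 24421 gene rows, 83 had such a name and 66 of those had enough counts. Wild-type (WT) C57BL/6J mice, 8 weeks old at the time of injection, were given 20 µl of 1% carrageenan, a seaweed polysaccharide that inflames tissue, under the skin of the left hind paw, and the lumbar DRG serving that paw were taken 1 day (1d), 3 days (3d) or 30 days (30d) later. The 0d ganglia came from naive mice, so no group had an injection without carrageenan. Each library held a pool of 2 to 3 mice, and each time point had 2 libraries, which the labels describe as biological replicates. Age at 30d and time since injection cannot be told apart, since the 30d mice had also grown older.

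Interleukins are small secreted proteins through which immune, glial and nerve cells signal. Most bind a receptor made of a private chain, which recognises the ligand, and a shared chain such as gp130, the common gamma chain or the common beta chain, which starts JAK and STAT signalling, while IL-1 and IL-17 receptors act through MyD88 or Act1 and NF-kappa B. In sensory ganglia, IL-1 beta and IL-6 are known for sensitising nociceptors, and IL-31 for causing itch.

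The 8 libraries held 44123208 to 73580338 counts assigned to genes, and the 66 members together took 752 to 826 CPM (counts scaled to a common library size by TMM) in each library. The samples are labelled as DRG neurons. The 10 sensory neuron markers summed to 12004 to 12774 CPM, but 6 Schwann cell markers reached 4154 to 8503 CPM and 10 macrophage markers 111 to 134 CPM, so the libraries also held RNA of cells other than neurons. In such bulk RNA, fewer cells of a type and less RNA per cell cannot be told apart. Some libraries stood apart within their time point. Replicate 1 of 0d had more Schwann cell marker RNA (8503 against 6144 CPM) and less neutrophil marker RNA (44.3 against 93.6 CPM) than replicate 2. Replicate 1 of 30d had the highest neutrophil (214 CPM), red blood cell (515 CPM) and adipocyte (29.3 CPM) marker sums of all libraries, where replicate 2 of 30d had 94.7, 276 and 7.13 CPM. The 2 libraries of 3d were the most alike (r = 0.993 over log2 CPM of genes) and those of 30d the least (r = 0.979).

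The RNA of no tested interleukin or interleukin receptor gene changed past the threshold at any time point, and few genes of any kind did. Of the 66 members, 58 passed edgeR's filter on low counts, and 0 of these 58 had an adjusted p under 0.05 in the 3 comparisons with 0d, from 1d to 3d, from 3d to 30d, or in the test over all 4 time points. Among all 17328 genes tested, the called shares were 0.346% at 1d, 0.219% at 3d and 0.0231% at 30d against 0d, 0.289% at 3d against 1d, 0.935% at 30d against 3d and 1.02% over the 4 time points, so 0 of 58 is close to these shares. DESeq2 and limma-voom also called 0 members in all 6 tests, though DESeq2 gave no adjusted p for some low members. At an unadjusted p under 0.05, edgeR found 4, 3 and 8 members at 1d, 3d and 30d against 0d, where the background was 4.47%, 5.94% and 12.3% of all genes and the members' shares were 6.9%, 5.17% and 13.8%. DESeq2 found 3, 3 and 8 and limma-voom 2, 4 and 9 in the same comparisons. For 3d against 1d edgeR found 4 members (6.9%, background 4.24%), for 30d against 3d it found 9 (15.5%, background 13%), and over the 4 time points 11 (19%, background 11%). DESeq2 found 3, 6 and 10 there and limma-voom 3, 11 and 11. The shares of all genes are not given for DESeq2, limma-voom or fits with 1 library left out. Counts of members from those fits cannot be set against the background above. The unadjusted counts of the main fit moved with single libraries. With 1 library left out they ran from 2 (without replicate 2 of 0d or either library of 3d) to 8 (without replicate 2 of 30d) at 1d, from 1 (without replicate 1 of 3d) to 6 (without either library of 30d) at 3d, and from 4 (without replicate 2 of 0d) to 15 (without replicate 1 of 30d) at 30d. For 3d against 1d they ran from 1 (without replicate 1 of 3d) to 7 (without either library of 30d), for 30d against 3d from 2 (without replicate 1 of 3d) to 13 (without replicate 1 of 30d), and over the 4 time points from 4 (without replicate 2 of 3d) to 15 (without replicate 1 of 30d).

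The members spanned a wide range of levels. Per kilobase of gene model, *Il6st* had by far the highest level, with a mean of 82.9 CPM per kilobase over the 8 libraries (lowest 76.5, highest 86.1). It encodes gp130, the shared signalling chain of the receptors for IL-6, IL-11, LIF and CNTF. *Il10rb*, the shared chain of the IL-10, IL-22 and interferon lambda receptors, followed at 31.1 (28.8 to 32.6), and *Il34*, a ligand of the macrophage receptor CSF1R, at 15.9 (14.5 to 18.4). Of the 50-base words of *Il10rb*, 19.5% also occur in other transcripts, so its counts may be uncertain, although its exons overlapped no other counted gene. The ranges of these 3 genes overlapped neither each other nor any lower member. The next 5, *Il4ra* (mean 9.36), *Il11ra1* (8.92), *Il17d* (8.42), *Il31ra* (6.96) and *Il16* (6.59), overlapped their neighbours in the order, and all 5 lay above *Il17rc* (4.37) in every library. On mm10, *Il6st* lies at chr13:112464070-112506860 on the plus strand with *Il31ra* beside it at chr13:112522807-112580662 on the minus strand, *Il10rb* at chr16:91406235-91425834 (plus) and *Il34* at chr8:110741829-110805924 (minus). In all, 25 members had a mean of at least 1 CPM per kilobase, 6 of the 22 ligand genes and 17 of the 35 receptor genes among them, and 18 members lay under 0.1.

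**Figure D1:**
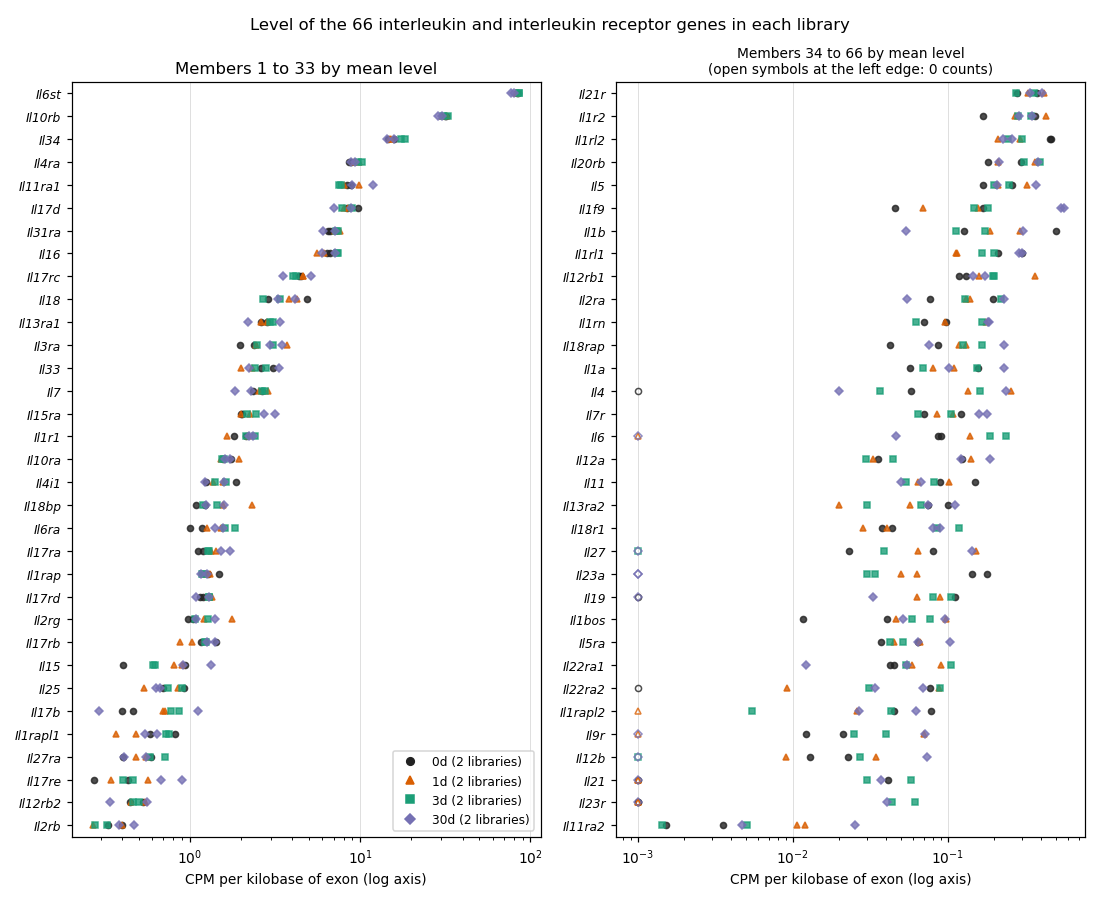
Level of each of the 66 members in each library, in CPM per kilobase on a log axis, ordered by mean, with a symbol per library coloured by time point and open symbols for libraries with 0 counts. The first 3 genes, *Il6st*, *Il10rb* and *Il34*, stand clear of all others, and the symbols of the 4 time points lie close together for the genes of the left panel and scatter widely for the low genes of the right panel.

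*Il6st* alone held 55.5 to 57.9% of all member counts in each library. The summed RNA of the 35 receptor genes was 652 to 716 CPM and that of the 22 ligand genes 85.6 to 101 CPM. Another 17 genes with such names held fewer than 10 counts over all libraries, and 8 of these had 0 (*Il17a*, *Il22*, *Il24*, *Il9*, *Il1f5*, *Il1f6*, *Il1f8* and *Il1f10*). *Il2* (9 counts), *Il20ra* (7) and *Il10* (6) were the nearest below the limit, and *Il27* (19), *Il23r* (24), *Il19* and *Il12b* (28 each) the nearest above it. For *Il17a*, the best known cytokine of T helper 17 cells, a total of 0 allowed at most 3 counts, and for *Il10*, an anti-inflammatory cytokine, 6 counts were found in all.

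The gp130 and IL-12 receptor group had 15 members, of which 11 were tested. *Il6st* had 460 and 455 CPM at 0d, 455 and 452 (1d), 470 and 469 (3d) and 440 and 417 (30d). Both 30d libraries were the lowest of the 8 and both 3d libraries the highest, yet the log2 fold change at 30d against 0d was only −0.09 (SE 0.04, 95% interval −0.18 to −0.01, edgeR adjusted p = 0.346). From 3d to 30d it was −0.13 (SE 0.04, edgeR adjusted p = 0.148). For this gene the intervals at 1d (−0.10 to 0.07) and 3d (−0.05 to 0.12) also bounded any change well under the size of a doubling.

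*Il6ra*, the private chain that binds IL-6, had the smallest p of all members at 3d. Its level was 3.93 and 3.34 CPM at 0d, 4.21 and 5.08 (1d), 5.40 and 6.18 (3d) and 5.25 and 4.70 (30d). All 6 libraries after injection lay above both 0d libraries. The log2 fold change was 0.67 at 3d (SE 0.18, 95% interval 0.28 to 1.07, edgeR adjusted p = 0.298) and 0.45 at 30d (SE 0.18, adjusted p = 0.346), and neither passed the threshold over all genes. The ligand *Il6* was close to the detection limit, with 5 and 6 counts at 0d, 7 and 0 (1d), 17 and 15 (3d) and 3 and 0 (30d). Its 3d libraries did not overlap those of any other time point, but the 95% interval of the log2 fold change at 3d against 0d ran from −1.25 to 3.76 (edgeR adjusted p = 0.999), and at 30d against 3d from −6.17 to −0.20 (adjusted p = 0.348). *Il6* passed the filter on low counts only through its 3d libraries, so its being tested favoured a peak at 3d.

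*Il11ra1*, the private chain for IL-11, measured 17.4 and 16.4 CPM at 0d, 15.8 and 19.3 (1d), 14.8 and 15.2 (3d) and 17.6 and 23.2 (30d). Between 3d and 30d the log2 fold change was 0.45 (SE 0.13, edgeR adjusted p = 0.148), and the 30d libraries, at 17.6 and 23.2, lay far apart. Without replicate 1 of 30d the adjusted p fell to 0.00973, with the lone 30d library assumed to vary like those of the other time points, and without a filter on low counts to 0.0472. Its counts are uncertain, since 60% of the 50-base words of its transcript also occur in *Gm13305*, and *Il11ra2*, all of whose words (100%) occur there, held only 1 to 19 counts a library. *Il31ra*, the itch receptor chain, had 23.8 and 24.3 CPM at 0d, 26.3 and 27.8 (1d), 26.5 and 27.1 (3d) and 26.2 and 22.1 (30d). Both 1d and both 3d libraries exceeded 0d, by a log2 fold change of 0.17 (SE 0.09) and 0.16 (SE 0.09), with edgeR adjusted p = 1.00 and 0.917. Its ligand *Il31* held 1 count in all.

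*Il23a*, the p19 chain of IL-23, had fewer counts at each later time point, with 13 and 12 counts at 0d, 4 and 3 (1d), 3 and 3 (3d) and 0 and 0 (30d). The 2 libraries of each later time point lay under both 0d libraries. With 0 counts at 30d, a limit of 3 counts over its 2 libraries put the level 9.37-fold below the 0d value. That ratio leaves out counting error at 0d and the spread between pools, so it is no lower bound. The fitted log2 fold change at 30d was −6.71 (interval −10.8 to −2.63, edgeR adjusted p = 0.191). *Il23a* passed the filter on low counts only through its 0d libraries, so its being tested favoured a fall from 0d. The other chain of IL-23, *Il12b*, held 28 counts in all and was not tested, and its receptor *Il23r* had 0 counts in all 4 libraries of 0d and 1d, then 10 and 8 at 3d and 6 and 0 at 30d. The other 5 tested members of this group, *Il27ra*, *Il12rb1*, *Il12rb2*, *Il12a* and *Il11*, had edgeR adjusted p values of 0.675 or more in the comparisons with 0d.

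The IL-1 family was the largest group, with 16 members, of which 15 were tested. The classical ligands were at the edge of detection. *Il1b*, the main pyrogenic cytokine of macrophages, had 9 and 41 counts at 0d, 18 and 11 (1d), 15 and 11 (3d) and 24 and 5 (30d). In CPM the 2 libraries of 0d, at 0.170 and 0.668, enclosed both 1d libraries and 1 library each of 3d and 30d. Its log2 fold change was −0.40 at 1d (95% interval −2.32 to 1.52), −1.15 at 3d (−3.09 to 0.79) and −0.85 at 30d (−2.77 to 1.07), and these signs rested on replicate 2 of 0d. Without it the 3d value was 0.16, and the remaining 0d library, at 0.170 CPM, lay below the 1d and 30d means of 0.320 and 0.238 CPM. *Il1a* had 6 to 32 counts in a library, and *Il1rn*, the receptor antagonist, 10 to 35. *Il1rn* measured 0.189 and 0.261 CPM at 0d against 0.488 and 0.5 at 30d, a log2 fold change of 1.12 (SE 0.73, edgeR adjusted p = 0.558). The signalling receptor *Il1r1* had 8.32 to 12.1 CPM over the 8 libraries, with log2 fold changes between −0.05 and 0.20 and intervals within 0.52 of 0, so a doubling of its RNA lay outside the intervals at all 3 time points.

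*Il1rl1*, which encodes ST2, the receptor for IL-33, had the smallest p at 1d. It measured 2.14 and 1.5 CPM at 0d, 0.820 and 0.798 (1d), 1.41 and 1.19 (3d) and 2.16 and 2.06 (30d). Both 1d libraries were the lowest of the 8, both 3d libraries lay between them and 0d, and the 30d libraries were in or just above the range of 0d. The log2 fold change at 1d was −1.16 (SE 0.33, 95% interval −1.86 to −0.47, edgeR adjusted p = 0.367). Its ligand *Il33*, an alarmin kept in the nucleus, measured 7.98 and 6.80 CPM at 0d, 6.00 and 5.18 (1d), 6.32 and 7.26 (3d) and 8.71 and 5.81 (30d). Its 1d libraries also lay below those of 0d, with a log2 fold change of −0.40 (SE 0.19, edgeR adjusted p = 1.00). Mast cells, which are rich in ST2, gave a sum over 8 markers of 107 to 113 CPM at 0d and 102 to 108 at 1d. This sum need not follow most markers of the list. At 3d it was 107 to 109 CPM, while the median log2 fold change of the 7 tested markers was −0.35. At 1d that median was −0.06, and the part of mast cells in the *Il1rl1* values was not tested.

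*Il18bp*, the soluble protein that neutralises IL-18, had higher values at 1d, with 1.72 and 1.52 CPM at 0d, 3.24 and 2.19 (1d), 1.69 and 2.02 (3d) and 2.22 and 1.74 (30d). Both 1d libraries lay above 0d, and the log2 fold change was 0.75 (SE 0.29, 95% interval 0.13 to 1.36), but the edgeR adjusted p was 0.903. That fold change depended on the 1d libraries, being 0.44 without replicate 1 of 1d and 1.00 without replicate 2. *Il18bp* is known as an interferon-induced gene. In the same libraries the 15 interferon-stimulated genes of a marker list summed to 335 and 324 CPM at 0d, 742 and 620 at 1d, 406 in both at 3d and 331 and 311 at 30d, and 12 of the 15 were called higher at 1d by edgeR. The higher of the 2 *Il18bp* values at 1d came from the library with the higher interferon sum, and the part of that response in the *Il18bp* values was not tested. *Il18* itself had 2.50 and 4.24 CPM at 0d, 3.69 and 3.33 (1d), 2.33 and 2.91 (3d) and 3.59 and 2.86 (30d), so that no time point lay outside the 0d range on both libraries. *Il18r1*, the chain of the IL-18 receptor that binds the ligand, had 11 and 11 counts at 0d, 9 and 6 (1d), 37 and 30 (3d) and 23 and 30 (30d). Its 3d and 30d libraries lay above the 4 earlier ones, with a log2 fold change against 0d of 1.33 at 3d (SE 0.69) and 1.07 at 30d (SE 0.70), and edgeR adjusted p = 0.886 and 0.561.

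*Il1rapl1*, a receptor-like protein that organises synapses and is not known to bind IL-1, measured 1.61 and 2.25 CPM at 0d, 1.32 and 1.00 (1d), 1.99 and 2.08 (3d) and 1.77 and 1.49 (30d). The 2 libraries of 1d were the lowest of the 8. Its log2 fold change was −0.73 at 1d (SE 0.31, edgeR adjusted p = 1.00) and 0.81 from 1d to 3d (SE 0.31, adjusted p = 0.861). The 1d value of *Il1rapl1* was −0.95 without replicate 1 of 0d and −0.47 without replicate 2. The related *Il1rapl2* had 44 counts over all libraries, 0 to 12 in each, and was not tested.

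*Il1f9*, which encodes IL-36 gamma, an alarmin of epithelial cells, gave the highest fitted fold change at 30d. It had 4 and 17 counts at 0d, 12 and 5 (1d), 16 and 22 (3d) and 55 and 62 (30d). Both 30d libraries lay far above the 6 others, at 0.926 and 0.885 CPM against 0.0756 to 0.301. The log2 fold change was 2.32 (SE 0.72, 95% interval 0.78 to 3.87, edgeR adjusted p = 0.233) and depended on the 0d libraries, being 1.70 without replicate 1 of 0d and 3.54 without replicate 2. Of its 50-base words 8.68% also occur in other transcripts. The 2 libraries of 30d, with neutrophil marker sums of 214 and 94.7 CPM, had nearly the same *Il1f9* level, and the part of neutrophil RNA in it was not tested. The receptor for IL-36, *Il1rl2*, had 0.888 and 0.913 CPM at 0d, 0.410 and 0.570 (1d), 0.475 and 0.588 (3d) and 0.505 and 0.443 (30d). All 6 later libraries lay below 0d, with log2 fold changes of −0.88, −0.76 and −0.92 (SE 0.52, 0.50 and 0.51, edgeR adjusted p = 1.00, 0.961 and 0.486).

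**Figure D2:**
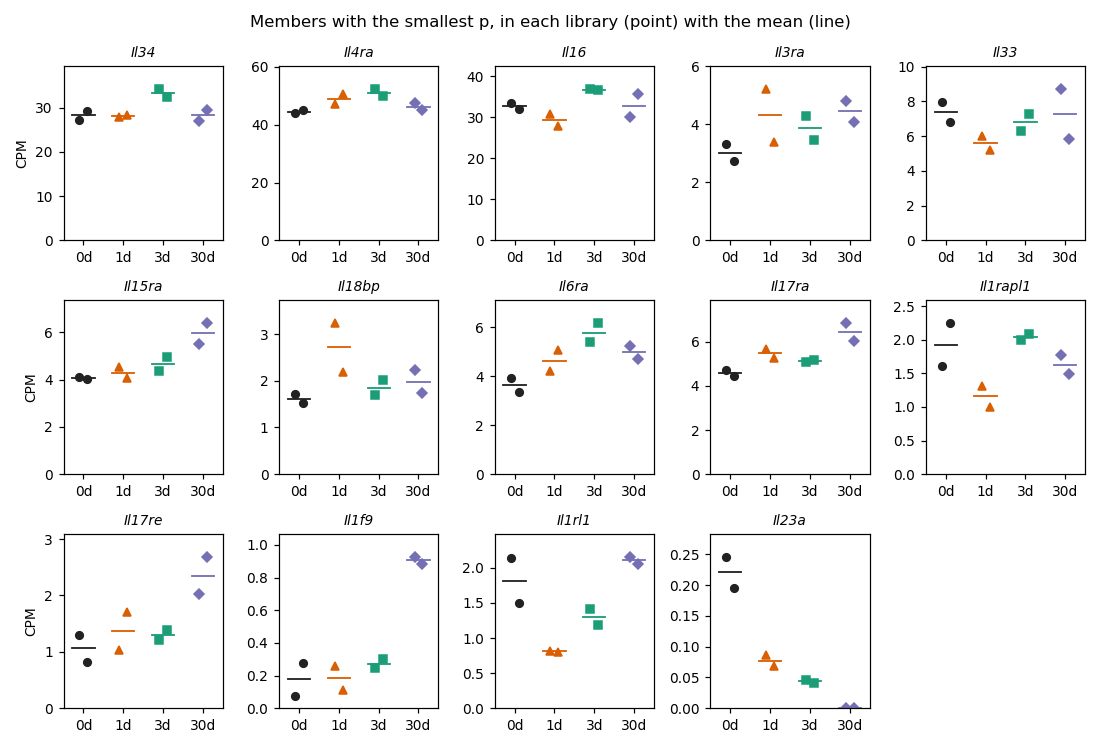
CPM in each library (points, with the mean of each time point as a line, axes starting at 0) for the 14 members with the smallest p in the comparisons with 0d and the test over 4 time points. *Il1f9* at 30d (0.926 and 0.885 CPM) and *Il1rl1* at 1d (0.820 and 0.798 CPM) lie apart from all 0d libraries, and *Il33* at 30d (8.71 and 5.81 CPM) shows how far the 2 libraries of 1 time point could differ.

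The IL-17 family had 8 members, all tested. *Il17d*, a ligand expressed outside the immune system, had the highest level per kilobase of the 8 (8.42, against 4.37 for *Il17rc*), with 10.3 and 11.8 CPM at 0d and 8.63 to 10.9 later, with log2 fold changes of −0.13, −0.11 and −0.20 at 1d, 3d and 30d (SE 0.14 each). The 30d value was −0.36 without replicate 1 of 30d and −0.04 without replicate 2. The receptor chains *Il17rc*, *Il17rd* and *Il17ra* were present at 4.45 to 12.2 CPM, while the ligand genes *Il17a*, *Il17c* and *Il17f* had 0, 4 and 5 counts in all. *Il17ra*, the chain shared by the receptors of this family, had 4.73 and 4.45 CPM at 0d, 5.67 and 5.29 (1d), 5.08 and 5.16 (3d) and 6.86 and 6.03 (30d). All 6 libraries after injection were above both 0d libraries, and the log2 fold change at 30d was 0.49 (SE 0.16, 95% interval 0.15 to 0.83, edgeR adjusted p = 0.247). *Il17re*, the chain for IL-17C, had 1.30 and 0.815 CPM at 0d and 2.02 and 2.68 at 30d, with 1.04 to 1.71 between. Its log2 fold change at 30d was 1.16 (SE 0.35, 95% interval 0.40 to 1.91, edgeR adjusted p = 0.218).

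Of the common gamma chain group and its relatives, 13 of 14 members were tested. *Il4ra*, which receives both IL-4 and IL-13, measured 44.1 and 45.0 CPM at 0d, 47.1 and 50.5 (1d), 52.3 and 49.8 (3d) and 47.3 and 45.1 (30d). All 6 later libraries exceeded those of 0d, the last by a narrow margin. The log2 fold change was 0.13 at 1d (SE 0.06), 0.20 at 3d (SE 0.06, 95% interval 0.06 to 0.33, edgeR adjusted p = 0.475) and 0.05 at 30d (SE 0.06). *Il13ra1*, the partner chain of *Il4ra* for IL-13, stayed between 8.14 and 12.5 CPM. The ligands were low or scarce, *Il4* with 0 to 14 counts a library and *Il13* with 4 in all.

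*Il15ra*, which presents IL-15 to neighbouring cells, had 4.12 and 4.04 CPM at 0d, 4.53 and 4.06 (1d), 4.39 and 4.97 (3d) and 5.52 and 6.40 (30d). Its 30d libraries were the 2 highest of the 8, and the log2 fold change was 0.55 (SE 0.17, 95% interval 0.17 to 0.92, edgeR adjusted p = 0.239). *Il15* itself had 1.21 and 0.522 CPM at 0d and 1.70 and 1.17 at 30d, which overlapped. *Il7*, a survival factor of lymphocytes, had 6.58 and 5.84 CPM at 0d, 6.30 and 7.11 (1d), 6.61 and 6.88 (3d) and 5.66 and 4.58 (30d), and its log2 fold change at 30d was −0.28 (SE 0.16, edgeR adjusted p = 0.512). *Il2rg*, the common gamma chain, had 1.63 and 1.74 CPM at 0d and 1.79 to 2.93 later. Of its 50-base words 42% also belong to *Gm20489*, so its counts may be uncertain, although its exons overlapped no other counted gene.

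In the common beta chain group, *Il3ra*, the private chain for IL-3, had 3.31 and 2.74 CPM at 0d, 5.22 and 3.40 (1d), 4.29 and 3.46 (3d) and 4.82 and 4.10 (30d). All 6 later libraries lay above 0d. The log2 fold change was 0.51 at 1d (SE 0.24), 0.36 at 3d (SE 0.23) and 0.56 at 30d (SE 0.23), with edgeR adjusted p = 1.00, 0.957 and 0.353. Within the IL-10 group, *Il10rb* stayed at 53.2 to 60.4 CPM, with both 30d libraries below 0d (log2 fold change −0.11, SE 0.06, edgeR adjusted p = 0.491). *Il10ra*, the private IL-10 chain, had 5.36 to 6.75 CPM, and its log2 fold changes against 0d lay between −0.08 and 0.07 with intervals within 0.43 of 0.

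2 ligands sit outside these families. *Il34* had 27.2 and 29.2 CPM at 0d, 27.9 and 28.4 (1d), 34.2 and 32.4 (3d) and 26.9 and 29.6 (30d). The 3d libraries lay above both 0d libraries and the 30d libraries on either side of them, and the log2 fold change at 3d was 0.24 (SE 0.08, 95% interval 0.07 to 0.40, edgeR adjusted p = 0.495), and from 3d to 30d it was −0.24 (SE 0.08, adjusted p = 0.195). *Il16*, a chemoattractant that binds CD4, had 33.4 and 31.9 CPM at 0d, 30.7 and 27.9 (1d), 36.8 and 36.6 (3d) and 30.0 and 35.5 (30d). Its 1d libraries lay below and its 3d libraries above 0d, and from 1d to 3d the log2 fold change was 0.32 (SE 0.09, 95% interval 0.14 to 0.51, edgeR adjusted p = 0.264). With 1d and 3d fitted alone that adjusted p was 0.0119, and without replicate 1 of 30d it was 0.0461. Since 23.5% of the words of *Il16* also occur elsewhere, mostly in the neighbouring gene *Stard5*, its counts may be uncertain, although its exons overlapped no other counted gene. 2 further members are no interleukins. *Il4i1* encodes an amino acid oxidase and overlaps *Tbc1d17* and *Nup62-il4i1* over 96.9% of its length, and *Il1bos* is an antisense RNA near *Il1b* with 1 to 8 counts a library.

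As a group, the tested members had median log2 fold changes slightly above 0. The median was 0.06 at 1d (−0.07 without replicate 1 of 1d), 0.13 at 3d and 0.13 at 30d, where the medians over all genes were −0.0032, −0.0021 and −0.00040. The fit was above 0 for 33, 35 and 39 of the 58 (56.9%, 60.3% and 67.2%), against 48.8%, 49.2% and 49.9% of all genes. Both libraries lay above both 0d libraries for 14 members at 1d (24.1%, background 15.5%), 21 at 3d (36.2%, background 19.9%) and 16 at 30d (27.6%, background 19.4%). They lay below for 9 members at each time point (15.5%), where the background was 16.4%, 19.6% and 20.2%. The 3 comparisons share the same 0d libraries, so a 0d library that is low for a gene lifts all of them, and these shares were not tested. All 6 later libraries lay on 1 side of 0d for members such as *Il6ra*, *Il17ra*, *Il4ra*, *Il3ra* and *Il1rl2*. The share of all genes with that pattern is not given, so it has no background here. The neutrophil marker sum was also above both 0d libraries in all 6 later ones, with 44.3 and 93.6 CPM at 0d, 107 and 113 (1d), 139 and 142 (3d) and 214 and 94.7 (30d), and its part in the members' values was not tested. Among the 33 receptors tested, 21, 20 and 25 had a fit above 0 at 1d, 3d and 30d (medians 0.07, 0.16 and 0.20), and among the 18 ligands 8, 10 and 9 (medians −0.07, 0.03 and −0.01).

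**Figure D3:**
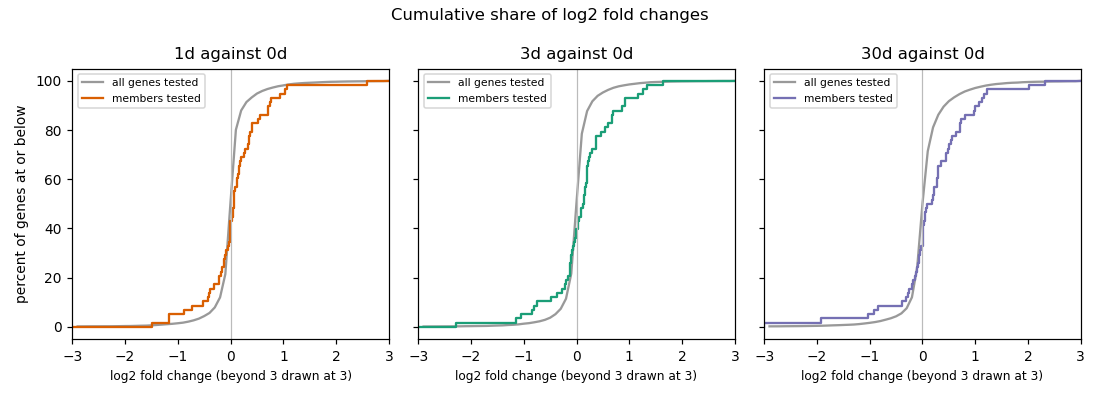
Cumulative share of genes (percent, vertical axis) by log2 fold change against 0d, for the 58 tested members and for all 17328 genes tested, at 1d, 3d and 30d. The members' curves cross 0 at a lower share than those of all genes, with 39 of 58 members above 0 at 30d, and rise less steeply, and 27 of the 58 had under 1 CPM.

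How small a change could have been seen depended on the level. Of the 58 tested members, 31 had a mean of at least 1 CPM, and among these the 95% interval of the log2 fold change lay within 1 of 0, that is within a doubling either way, for 24 (1d), 26 (3d) and 28 (30d). The median SE of these 31 was 0.17 in each comparison. Of the 27 members under 1 CPM, 1, 2 and 0 had such an interval, with a median SE of 0.77, 0.74 and 0.72. For *Il1a*, *Il1b* and *Il6* the intervals at all 3 time points held a doubling or a fall of that size, so that such a change was not detectable in these libraries, while for *Il6st*, *Il10rb*, *Il4ra*, *Il34*, *Il16* and *Il31ra* a doubling lay outside the intervals at all 3 time points.

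**Figure D4:**
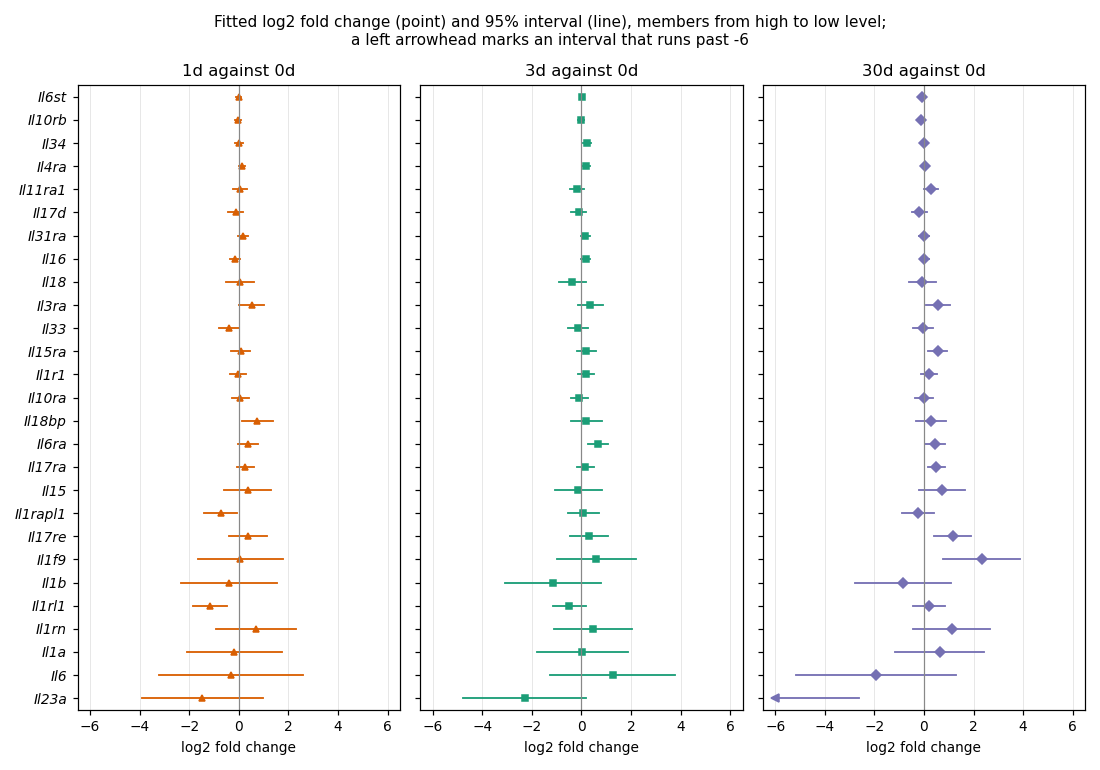
Fitted log2 fold change against 0d (point) with its 95% interval (line) for 27 tested members at 1d, 3d and 30d, ordered from high to low level. Intervals are narrow for *Il6st* (−0.18 to −0.01 at 30d) and widen down the panels, and the 30d point of *Il23a*, at −6.71, lies beyond the axis and rests on 0 counts.

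The signalling partners of the members, a list of 52 genes outside the naming rule, also gave no call against 0d. edgeR called 0 of the 51 tested in each of these 3 comparisons, with 5, 5 and 4 at an unadjusted p under 0.05 (9.8%, 9.8% and 7.84%, background 4.47%, 5.94% and 12.3%). *Stat3* (93.2 CPM per kilobase) and *Jak1* (90.5), which carry the signal of gp130, were near the level of *Il6st*. *Lifr* (48.4) and *Cntfr* (43.3), the LIF receptor chain that other gp130 ligands share and the private chain for CNTF, lay above every private interleukin receptor chain among the members. *Osmr*, the partner of *Il31ra* in the IL-31 receptor, was at 10.1 and *Crlf2*, the TSLP receptor, at 10.7. *Cntf*, a gp130 ligand of Schwann cells, had 38.7 and 35.6 CPM at 0d, 39.2 and 43.2 (1d), 58.2 and 54.9 (3d) and 28.7 and 40.3 (30d). Its log2 fold change was 0.61 at 3d (SE 0.14, edgeR adjusted p = 0.363), and the Schwann cell marker sum was 8503 and 6144 CPM at 0d, 6019 and 6001 (1d), 7082 and 7036 (3d) and 4154 and 5870 (30d). The library with the lowest sum also had the lowest *Cntf* value, the one with the highest sum did not have the highest, and the part of Schwann cell RNA in these values was not tested. *Socs1*, an interferon- and cytokine-induced inhibitor of JAK kinases, had 2.44 and 2.14 CPM at 0d and 3.62 and 3.92 at 1d, with a log2 fold change of 0.72 (SE 0.22, adjusted p = 0.518). *Gsdmd*, through whose pores IL-1 beta leaves the cell, had 3.10 and 2.40 CPM at 0d and 4.90 and 4.73 at 30d, a log2 fold change of 0.81 (SE 0.21, adjusted p = 0.164).

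Genes that interleukins are known to induce were read from a second list of 22, of which 19 were tested. edgeR called 0 of them in each comparison with 0d, with 4, 4 and 3 at an unadjusted p under 0.05 (21.1%, 21.1% and 15.8%, against the same background), and these shares were not tested. Their directions were mixed at 1d (*Vcam1* and *Timp1* higher, *Nos2* and *Steap4* lower) and at 30d (*Vcam1* higher, *Cebpd* and *Bcl3* lower). At 3d *Ccl2*, *Cebpb*, *Timp1* and *Serpina3n* were higher, with a log2 fold change of 0.33 for *Cebpb* (SE 0.10, edgeR adjusted p = 0.367). *Socs3*, the feedback inhibitor of gp130, had 10.8 and 10.4 CPM at 0d, 9.60 and 8.23 (1d), 12.8 and 10.6 (3d) and 8.76 and 10.1 (30d). *Serpina3n*, an acute-phase protease inhibitor, was the only gene of the list to pass the threshold in any comparison, and it fell from 220 and 220 CPM at 3d to 174 and 173 at 30d (log2 fold change −0.35, SE 0.07, edgeR adjusted p = 0.0381), after 175 and 202 at 0d. *Lcn2*, a neutrophil and acute-phase protein, had 2.87 and 8.43 CPM at 0d, 9.32 and 9.33 (1d), 15.2 and 12.9 (3d) and 22.0 and 8.58 (30d). Its highest and lowest libraries were those with the highest and lowest neutrophil marker sums, and the part of neutrophil RNA in these values was not tested.

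The start regions of 52 members were read from RefSeq (GRCm38.p6), from 250 bases before to 50 after each start, and searched on both strands for letters that transcription factors of these pathways bind. The short interferon-stimulated response element GAAANNGAA was found in 4 members (7.69%, against 9.76% of 27025 genes), the STAT element TTCNNNGAA, which reads the same on both strands, in 10 (19.2% against 9.55%), and the kappa-B-like GGGANTTTC in 2, *Il6* and *Il16* (3.85% against 1.29%). The 3 motifs can overlap in part of their letters. A match is a description of letters and not a binding site. 3 regions are shown, with the matched letters in capitals. That of *Il6* (chr5:30012864-30013163, plus strand) is shown as the start of the classical NF-kappa B target that stayed at 0 to 17 counts, with its match 44 bases before the start. That of *Il15ra* (chr2:11705043-11705342, plus strand) is shown because it holds an interferon element match, 149 bases before the start and on the minus strand. A second start region of *Il15ra*, not shown, holds another, 30 bases after its start. That of *Il1f9* (chr2:24186226-24186525, plus strand) is shown as the member with the highest fitted fold change at 30d, with a STAT element match 128 bases before the start.
Il6: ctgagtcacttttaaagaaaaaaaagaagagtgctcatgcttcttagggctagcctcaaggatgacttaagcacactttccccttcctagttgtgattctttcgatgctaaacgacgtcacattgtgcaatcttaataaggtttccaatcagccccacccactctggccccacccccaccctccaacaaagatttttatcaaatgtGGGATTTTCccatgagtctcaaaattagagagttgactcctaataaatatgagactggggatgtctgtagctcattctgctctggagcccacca
Il15ra: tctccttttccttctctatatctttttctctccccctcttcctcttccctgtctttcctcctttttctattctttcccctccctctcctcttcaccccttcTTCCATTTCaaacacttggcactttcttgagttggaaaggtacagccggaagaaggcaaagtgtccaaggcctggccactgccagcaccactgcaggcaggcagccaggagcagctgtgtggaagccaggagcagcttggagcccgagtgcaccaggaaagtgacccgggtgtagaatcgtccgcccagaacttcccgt
Il1f9: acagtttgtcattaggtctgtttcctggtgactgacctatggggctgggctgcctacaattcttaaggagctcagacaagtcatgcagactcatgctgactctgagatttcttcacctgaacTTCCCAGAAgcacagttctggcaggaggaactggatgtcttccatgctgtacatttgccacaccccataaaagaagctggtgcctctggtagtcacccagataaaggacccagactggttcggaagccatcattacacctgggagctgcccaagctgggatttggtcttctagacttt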

How the data were processed

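RNA of pooled lumbar DRG was sequenced by Illumina after TruSeq preparation. The authors ran cutadapt (2.10) to trim, STAR (2.7.5a) to align to mm10, and counted read pairs on UCSC genes with featureCounts (2.0.1), giving a pair to each overlapping gene and using no strand, and the deposited counts carry no normalization or filter. Versions are those of the submitters' processing notes. Overlapping and antisense genes therefore cannot be told apart. Rows whose gene name is blank or names no gene were left out of library sizes. With 44123208 to 73580338 counts in a library, counting error was small for the abundant members, whose precision was set by how far the pools differed.

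Groups were taken from the sample labels, and columns were matched by their names. The counts were fitted in R (4.3.3) with edgeR (4.0.16), filterByExpr, TMM and robust quasi-likelihood, in 1 fit of all genes and 8 libraries with time point as the only term. A call required a Benjamini-Hochberg adjusted p under 0.05 over all 17328 genes tested. Each standard error was obtained as the absolute log2 fold change over the root of its F. CPM came from the deposited counts after TMM scaling, and levels are compared between genes only per kilobase of the deposited gene length. The smallest detectable total was taken as 3 counts, which like the intervals on counts covers counting error only. The fits were tested on simulated counts.

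The members named in detail are the 5 with the smallest p in each comparison with 0d and over the 4 time points, the 8 with the highest level, 3 untested ones and 17 given by name, 30 in all, and others were named to complete a receptor group, after their values were seen. The members and all gene lists were chosen with earlier results of these data known. DESeq2 (1.42.0), limma-voom (limma 3.58.1), another library scaling, no filter, no robust estimation, compared groups alone, a replicate block and the removal of each library were the alternatives. Shared sequence was read from 50-base words of GENCODE vM21 transcripts.

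The labels give the same replicate numbers at all time points. Over the 6 pairs of time points the correlation of the differences between replicates 1 and 2 ran from −0.014 to 0.044, so none exceeded 0.1 and the numbers were not taken to pair the samples.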

Additional observations from a re-analysis of the deposited data

How the results depend on the processing

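All counts of called members were 0 in the main fit, and most alternatives left them at 0. The count for 30d against 3d became 1 without a filter on low counts (*Il11ra1*), and that for 3d against 1d became 1 with the compared groups fitted alone (*Il16*). Leaving out 1 library gave counts of 0 to 1 for 3d against 1d, 30d against 3d and any difference over the 4 time points, all of the 1s without replicate 1 of 30d (*Il16*, *Il11ra1* and *Il11ra1*), and 0 for the 3 comparisons with 0d. A time point left with 1 library was assumed to vary like the others. Replicate numbers showed no pairing, and the fit with the replicate block called 0 members in all 6 tests. Leaving out 1 library moved the log2 fold change of *Il1b* at 3d over −1.81 to 0.16 (−1.15 with all libraries), that of *Il10ra* over −0.15 to 0.00059 (−0.08) and that of *Il18* over −0.69 to 0.073 (−0.36), each turning sign without replicate 2 of 0d, and that of *Il1a* at 30d over −0.086 to 1.53 (0.63), turning sign without replicate 2 of 30d. For the named members the alternatives were run on 1 comparison each, that with 0d where the p was smallest, and there the others kept their direction and stayed above the threshold. The median log2 fold change of the tested members stayed between 0.05 and 0.19 at 3d and 30d, and at 1d it ran from −0.07 (without 1d replicate 1) to 0.13 (without 1d replicate 2). DESeq2 gave no adjusted p for some low members, so that 34 to 50 of the 58 were judged. The cause of these changes was not tested.

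With 2 libraries a time point, the intervals of nearly all members under 1 CPM held a doubling or a fall of that size, and none of the results separates the carrageenan from the injection. P-values measure the spread between pools of 2 to 3 mice.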
